A study of Nannochloropsis oceanica with 15 samples.

Results

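Transcript levels 24 h after transfer to medium without phosphate were compared with those at 6 h in strain IMET1 of Nannochloropsis oceanica, a single-celled alga of the sea that accumulates oil. The comparison covers every gene of the deposited table, on both sides of the 12 h sampling. Of 10434 genes, 9321 had enough counts to be tested, 1113 were removed by the filter on low counts, and 336 of these had 0 counts in all libraries. It uses 6 of the 15 libraries of total RNA, the replicates a, b and c of each of these times.

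Per the labels, the strain was grown in modified f/2 medium under continuous light to linear growth phase. The cells were then washed in seawater, and those sampled at 6 h and at 24 h share this handling and the label of phosphate deprivation. Cultures in complete f/2 are mentioned too, but none of the 15 libraries carries such a label. Phosphate deprivation, time since transfer and handling therefore cannot be told apart, and the 24 h state is set only against the 6 h state. Nothing in the labels says whether a letter marks the same culture at both times, so the p-values measure the spread between libraries, which may in part be technical.

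Phosphorus is a building block of nucleic acids, phospholipids and ATP. Algae short of phosphate are known to express high-affinity phosphate transporters, to secrete phosphatases that free phosphate from organic compounds, to recycle phosphorus from membranes by replacing phospholipids with sulfolipids and betaine lipids, and to store carbon as triacylglycerol. SPX domain proteins sense inositol pyrophosphates, which report the phosphate status of the cell. The gene names below are homology annotations of the table and were not tested in this species.

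The 6 libraries held 16661053 to 26349336 counts, with 6.35% to 7.6% of each in its top 10 genes. Levels are counts scaled to a common library size (CPM), and differences are log2 fold changes ± SE of 24 h over 6 h with n = 3 libraries per time. Across genes, which are not independent replicates, log2 CPM correlated at 0.908 to 0.925 within 6 h, at 0.921 to 0.93 within 24 h and at 0.879 to 0.902 between the times. The oil body protein, light-harvesting proteins and nitrate reductase of this alga were all detected in the libraries.

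In edgeR's quasi-likelihood test at an adjusted p under 0.05, 1924 genes (20.6% of those tested) were higher at 24 h and 1715 (18.4%) were lower. Most differences were small. The median log2 fold change was 0.59 among genes that rose and -0.6 among genes that fell, against 0.02 over all tested genes. Called genes with a fitted change of at least 2-fold numbered 382 upward (4.1%) and 313 downward (3.36%). All 3 libraries of 24 h lay above all 3 of 6 h for 2503 genes (26.9%) and below them for 2302 (24.7%). Lists of DNA replication, mitosis and the proteasome held more genes that fell than rose. Lists of chlorophyll synthesis, ribosome assembly, nitrogen assimilation, carbon metabolism and phosphate transport with SPX proteins held more that rose than fell. Counts of list members below are to be read beside the shares of all tested genes, 20.6% higher and 18.4% lower.

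**Figure D1:**
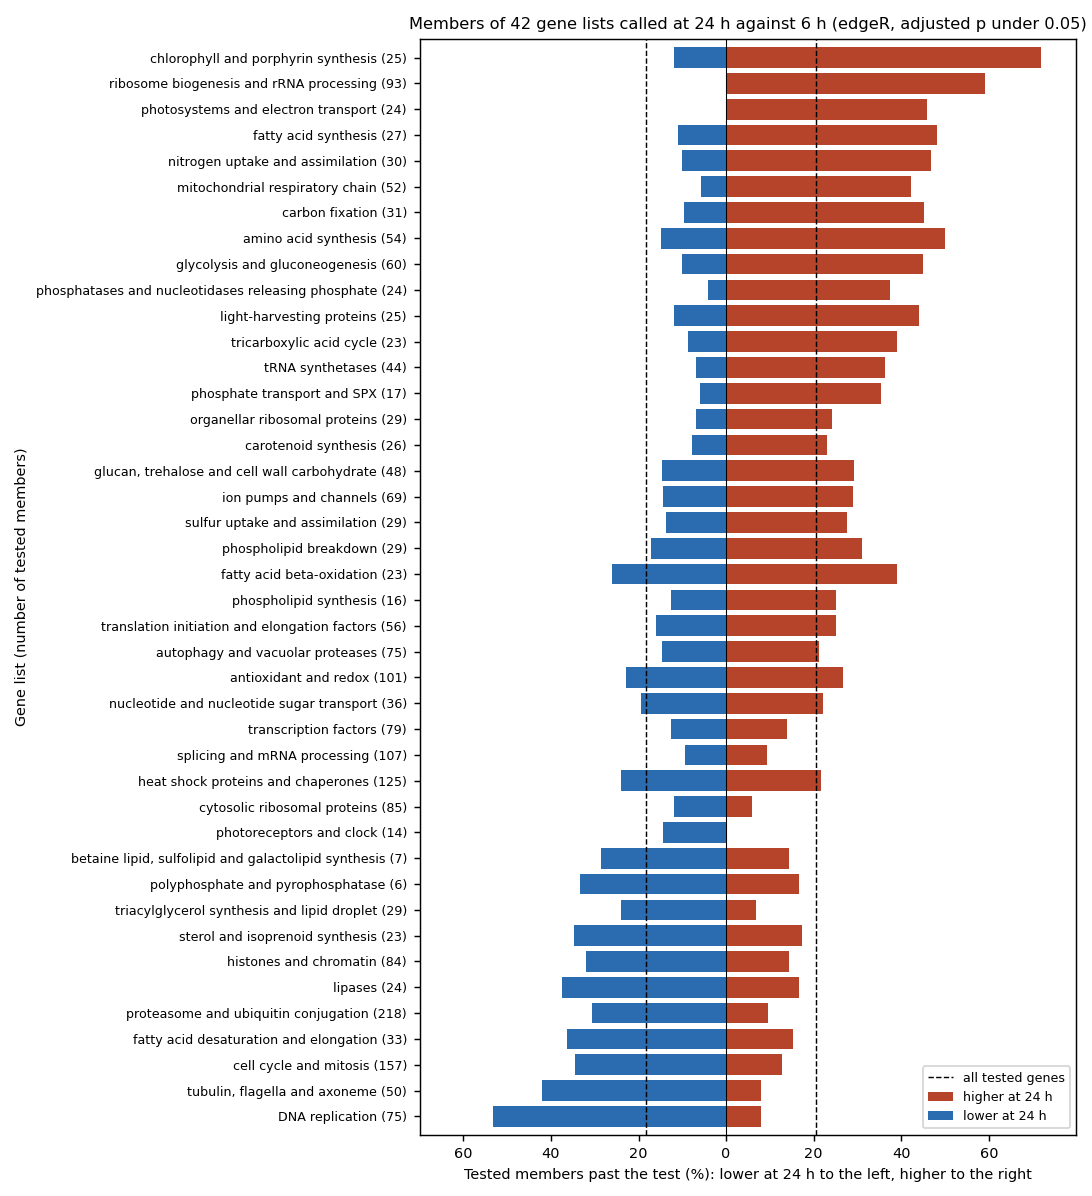
The bars give, for each of 42 gene lists, the percentage of tested members that were higher at 24 h (right, red) or lower (left, blue), and the dashed lines give the same over all tested genes, 20.6% and 18.4%. Chlorophyll synthesis, with 72.0% of members higher, and DNA replication, with 53.3% lower, lie at opposite ends.

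Of 75 tested genes of DNA replication, 40 were lower at 24 h and 6 were higher, with a median log2 fold change of -0.68. Proliferating cell nuclear antigen (NO06G02560), the sliding clamp that holds polymerases on DNA, measured 428.8, 419.5 and 366.7 CPM at 6 h and 159.0, 163.5 and 151.1 CPM at 24 h. The libraries of the times did not overlap, and the fall was -1.36 ± 0.07 (edgeR adjusted p = 1.3e-07). MCM2 (NO22G00890), a subunit of the helicase that opens replication origins, went from 174.7, 179.1 and 181.1 to 72.4, 67.3 and 59.7 CPM, by -1.42 ± 0.10 (edgeR adjusted p = 1e-06).

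The fall extended over much of the replication machinery, which was sorted by role after the values had been seen. All 6 tested of 7 genes of the MCM2 to MCM7 helicase fell, by -1.42 to -0.68 on the log2 scale. All 6 subunits of replication factor C, which loads the clamp, also fell, by -1.35 to -0.80. Of 13 subunits of polymerases alpha, delta and epsilon and primase, 10 fell and 0 rose. DNA polymerase epsilon (NO09G01170), which copies the leading strand, dropped from 485.7, 425.7 and 354.2 to 203.3, 201.4 and 202.6 CPM. For single-strand binding proteins, 2 of 5 were lower and 0 higher, with differences from -3.66 to 3.13 on the log2 scale.

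Among enzymes of deoxynucleotide supply, 3 of 8 fell and 0 rose. The small chain of ribonucleotide reductase (NO04G04660), which makes the DNA precursors, was at 186.9, 168.0 and 95.3 CPM at 6 h and at 68.1, 72.2 and 81.0 CPM at 24 h. It fell by -1.02 ± 0.20 (edgeR adjusted p = 0.0015), while a large chain of the same enzyme (NO17G00650) had a difference of -0.02 ± 0.09 (edgeR adjusted p = 0.9). Topoisomerases, which relieve twisting of DNA, were mixed, with 5 of 9 lower and 2 higher. DNA topoisomerase I (NO18G02100) rose from 97.6, 89.8 and 132.0 to 248.9, 247.5 and 281.9 CPM, by 1.28 ± 0.12 (edgeR adjusted p = 6.7e-06).

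The replication genes differed in their courses. Mean levels of PCNA were 54.1 CPM at 0 h, 308.3 CPM at 12 h and 94.3 CPM at 48 h, so its mean was highest at 6 h among the 5 times. MCM3 (NO02G05290), another helicase subunit, instead had its highest mean at 12 h (338.0 CPM) and fell from 197.6, 169.7 and 151.9 CPM at 6 h to 106.5, 97.2 and 119.7 CPM at 24 h. At 24 h neither gene had returned to its 0 h mean, which for MCM3 was 43.1 CPM.

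Part of the mitotic genes fell as well. Of 157 tested genes of cell cycle and mitosis, 54 were lower and 20 higher, with a median of -0.31. Cyclin-A1-1 (NO13G01690), which drives passage through S phase and into mitosis, measured 73.9, 67.3 and 44.6 CPM at 6 h against 18.7, 16.4 and 12.9 CPM at 24 h, a fall of -1.95 ± 0.23 (edgeR adjusted p = 4.2e-05). Its mean was 0.929 CPM at 0 h and 5.46 CPM at 48 h. The mitotic kinase Nek2 (NO17G02980) fell from 75.6, 89.0 and 51.7 to 27.9, 23.6 and 21.2 CPM, by -1.57 ± 0.17 (edgeR adjusted p = 1.9e-05).

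Cyclins were split, with 8 of 26 tested lower, 4 higher and a median of -0.07. Structural parts of mitosis also fell in part. Of 11 condensin, cohesin and SMC proteins, which shape and hold chromosomes, 8 fell and 0 rose. The anaphase-promoting complex, which marks cyclins for destruction, had 8 of 17 members lower and 0 higher. Among 4 kinetochore proteins, which tie chromosomes to the spindle, 3 fell. Kinesins were split, with 8 of 27 lower and 5 higher.

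Aurora-3 (NO04G04240), a mitotic kinase, went the other way. It measured 18.7, 16.0 and 20.0 CPM at 6 h and 41.0, 54 and 64.4 CPM at 24 h, a rise of 1.54 ± 0.22 (edgeR adjusted p = 0.00016). Its mean was higher still at 12 h (122.5 CPM) and at 48 h (105.5 CPM). The MYB3R-3 transcription factor (NO24G00620), whose family in Arabidopsis controls mitotic genes, rose from 30.9, 24.9 and 21.6 to 55.2, 59.4 and 68.4 CPM, by 1.24 ± 0.21 (edgeR adjusted p = 0.00055), with 208.3 CPM at 12 h. Part of the higher members of the list were copies of CDC48, a chaperone that also acts outside division, with 4 of 10 higher and 1 lower.

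Tubulins, the subunits of the spindle and of other microtubules, fell in all 6 of 7 genes that were tested. They lay between -1.70 and -0.62 on the log2 scale. Tubulin alpha-2 (NO12G02410) measured 3034.5, 2960.0 and 2179.8 CPM at 6 h and 1591.5, 1561.0 and 1624.0 CPM at 24 h, a fall of -0.78 ± 0.14 (edgeR adjusted p = 0.00097), and its mean at 12 h was 4333.7 CPM. Among genes annotated to dynein and axonemes, 5 of 21 fell and 3 rose. Histone H1 (NO03G01950), a linker of chromatin, dropped from 89.5, 74.9 and 88.9 to 20.1, 23.8 and 33.9 CPM, by -1.70 ± 0.19 (edgeR adjusted p = 2.6e-05). Of 84 genes of histones and chromatin, 27 were lower and 12 higher. In bulk RNA, fewer cells in a stage of division and less transcript per cell cannot be told apart.

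**Figure D2:**
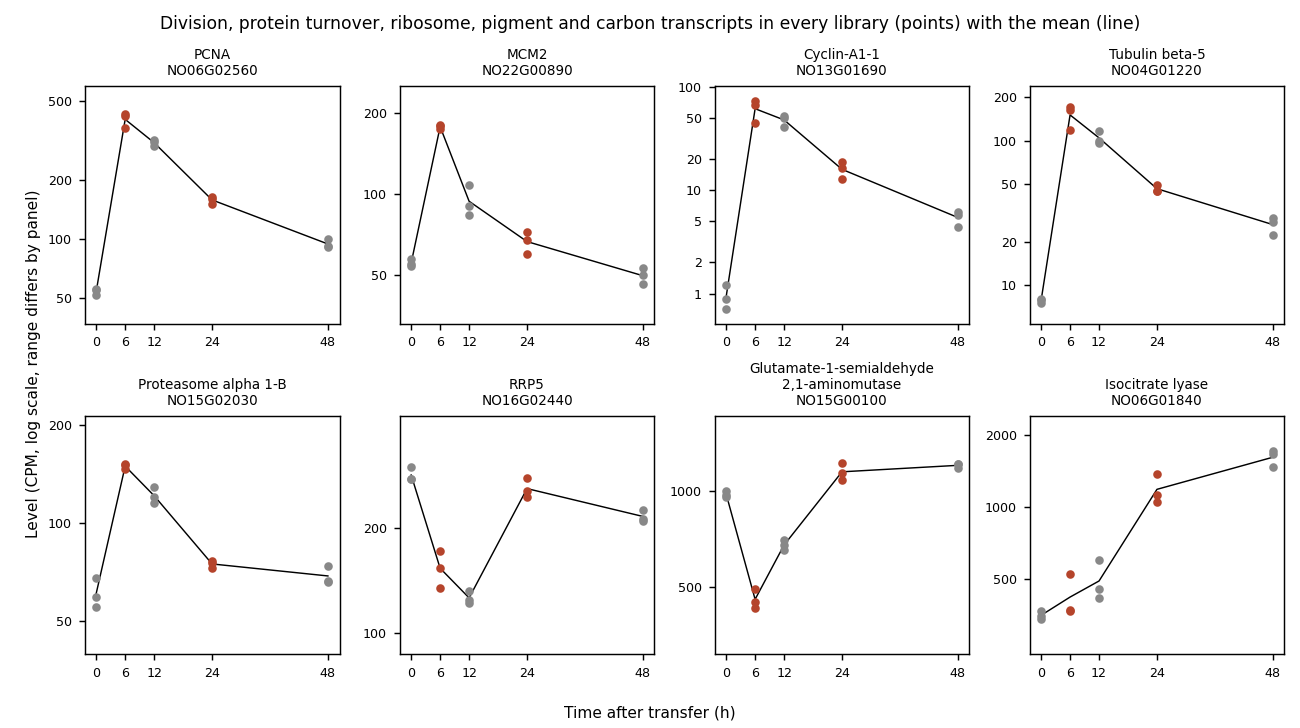
Each panel gives the level of 1 gene in CPM on a log axis, whose range differs by panel, in the 3 libraries of each time (points; 6 h and 24 h in red) with their mean (line) against hours after transfer. PCNA, MCM2, cyclin-A1-1, tubulin beta-5 and proteasome subunit alpha 1-B lie lower at 24 h than at 6 h in every library, and RRP5, glutamate-1-semialdehyde 2,1-aminomutase and isocitrate lyase lie higher.

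The proteasome, which degrades proteins tagged with ubiquitin, mostly fell. Of 45 tested of 47 proteasome subunits, 30 fell and 1 rose, with a median of -0.63. Subunit alpha 1-B (NO15G02030) was at 152.1, 150.2 and 146.2 CPM at 6 h and at 72.7, 75.2 and 76.3 CPM at 24 h, a fall of -1.0 ± 0.08 (edgeR adjusted p = 2e-06). Non-ATPase subunit 3 of the regulatory particle (NO24G00350) fell from 153.5, 155.6 and 157.5 to 78.5, 65.3 and 66.3 CPM (-1.15 ± 0.10, edgeR adjusted p = 4.5e-06). The other 173 genes of the ubiquitin list, such as ligases and cullins, had 37 lower, 20 higher and a median of -0.09. Proteasome alpha 1-B had means of 60.6 CPM at 0 h, 121.2 CPM at 12 h and 68.6 CPM at 48 h.

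Ribosome assembly was the list with the most genes that rose. Of 93 tested genes of ribosome biogenesis and rRNA processing, 55 were higher and 0 lower, with a median of 0.47. DESeq2 called 56 higher and 1 lower, and edgeR called 2 lower without replicate c of 6 h. RRP5 (NO16G02440), needed for cleavage of the rRNA precursor in yeast, rose from 172.3, 153.4 and 135.1 to 279.7, 245.7 and 255.7 CPM (0.76 ± 0.08, edgeR adjusted p = 2.5e-05). BMS1 (NO05G00460), a GTPase of small subunit assembly, rose from 44.0, 36.5 and 37.3 to 92.5, 89.8 and 71.1 CPM (1.10 ± 0.12, edgeR adjusted p = 2e-05). Both had no overlap between the times.

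Transcripts of the ribosomal proteins themselves did not share that rise. Of 85 tested cytosolic ribosomal proteins, 5 were higher and 10 lower, with a median of -0.06. At 48 h against 12 h, which shares no library with this comparison, 70 of these genes were lower and 0 higher, with a median of -1.25 (all genes: 26.2% lower, 26.6% higher). The list's median log2 level relative to the genes' own means was -0.61 at 0 h, 0.41 at 6 h, 0.56 at 12 h, 0.36 at 24 h and -0.69 at 48 h. Among the exceptions, 60S L17-2 (NO17G01860) rose from 160.6, 224.9 and 209.9 to 571.6, 570.6 and 560.5 CPM, by 1.52 ± 0.44 (edgeR adjusted p = 0.017). This call was lost without replicate a of 6 h (adjusted p = 0.066, edgeR). Near-identical copies of ribosomal protein genes may share reads, so single members are uncertain.

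Enzymes that load amino acids onto tRNA and make amino acids rose in part. Of 44 tRNA synthetases, 16 were higher and 3 lower, and of 54 genes of amino acid synthesis, 27 were higher and 8 lower (5 lower without replicate b of 24 h). The 3 lower synthetases became 1 without replicate a or b of 6 h or c of 24 h. Tryptophan-tRNA ligase (NO01G05130) rose from 30.7, 31.2 and 33.3 to 82.4, 77.8 and 87.9 CPM (1.38 ± 0.07, edgeR adjusted p = 1.3e-07). Chorismate synthase (NO01G05690), the last step of the pathway that feeds all aromatic amino acids, rose from 73.2, 68.0 and 86.7 to 215.3, 213.4 and 224.1 CPM (1.52 ± 0.09, edgeR adjusted p = 4.2e-07).

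**Figure D3:**
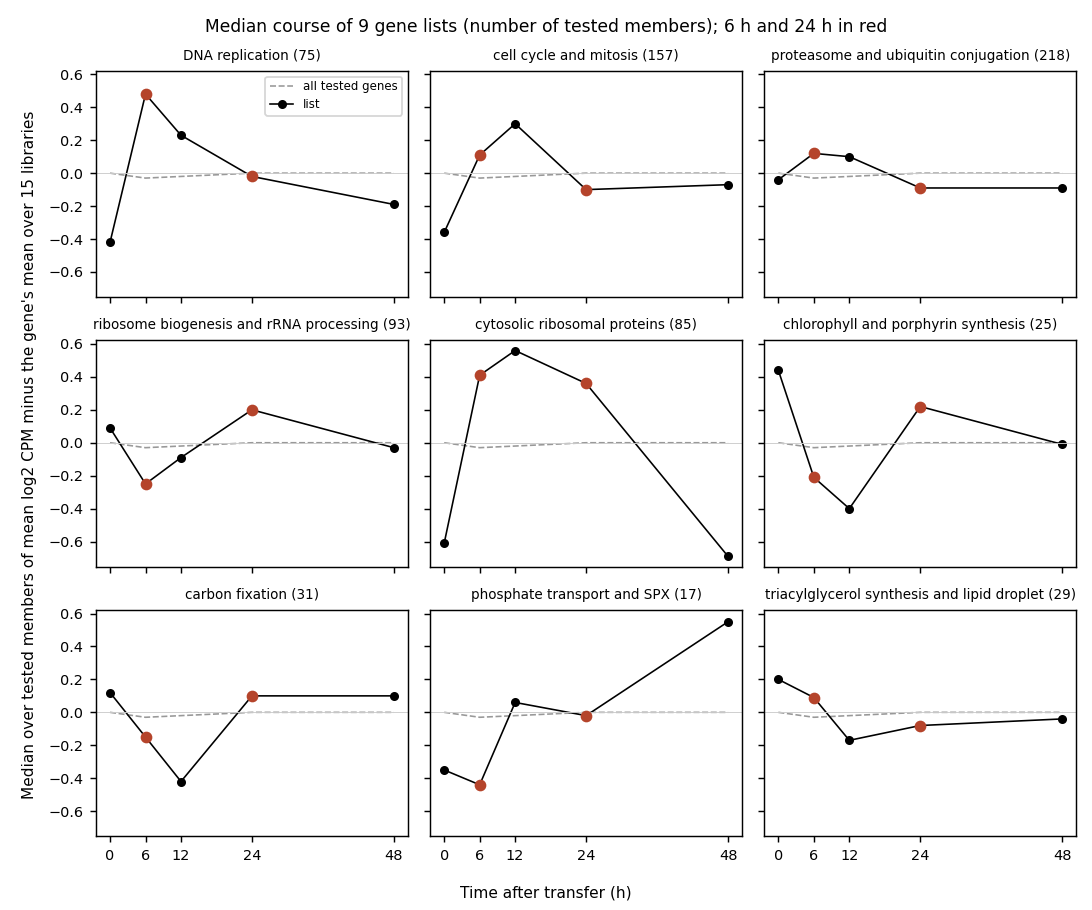
Each panel gives, against hours after transfer, the median over the tested members of a list of the mean log2 CPM minus the gene's own mean over 15 libraries (black), with 6 h and 24 h in red and all tested genes dashed. DNA replication falls from 0.48 at 6 h to -0.02 at 24 h, ribosome biogenesis goes from -0.25 to 0.20, and cytosolic ribosomal proteins lie at -0.61 at 0 h, 0.41 at 6 h, 0.36 at 24 h and -0.69 at 48 h.

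Part of the phosphate uptake genes rose. In the list of phosphate transporters with SPX proteins, 6 of 17 tested members (35.3%) were higher and 1 was lower, with a median of 0.33. The inorganic phosphate transporter 1-12 homologue (NO16G01940), an importer, measured 542.1, 503.9 and 482.4 CPM at 6 h and 1464.5, 1372.5 and 1589.4 CPM at 24 h, a rise of 1.53 ± 0.08 (edgeR adjusted p = 1.3e-07). Its libraries did not overlap between the times. Its mean at 24 h (1475.5 CPM) was close to that of 0 h (1502.6 CPM), with 731.4 CPM at 12 h and 1687.4 CPM at 48 h.

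Other importers had higher means at 48 h than at 24 h. Phosphate transporter 2-1 (NO24G00190), a chloroplast carrier in plants, rose from 176.5, 149.9 and 115.7 to 289.0, 307.9 and 292.5 CPM, with a mean of 690.4 CPM at 48 h (1.01 ± 0.12, edgeR adjusted p = 4.8e-05). Phosphate transporter 1-4 (NO03G01310) rose from 54.3, 58.0 and 82.7 to 103.4, 114.8 and 167.5 CPM (0.98 ± 0.18, edgeR adjusted p = 0.00093) and reached 409.4 CPM at 48 h. Both had 24 h libraries above every 6 h library.

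PHO1-2 (NO26G01790), of a family that exports phosphate in plants, was the member that fell. It measured 103.6, 110.4 and 117.2 CPM at 6 h and 64.5, 61.4 and 60.4 CPM at 24 h, by -0.83 ± 0.06 (edgeR adjusted p = 2e-06), and its 24 h mean lay close to its 0 h mean of 61.3 CPM. Another member of that family, PHO1 homologue 7 (NO05G03150), had a difference of -0.03 ± 0.10 (edgeR adjusted p = 0.83) although its mean at 12 h was 55.6 CPM, above 28.8 CPM, the highest library of 6 h and 24 h.

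Among SPX proteins, a pair of genes annotated SPX domain protein 1 rose slightly. NO10G01110 rose from 485.8, 379.7 and 298.4 to 548.7, 618.4 and 540.0 CPM (0.55 ± 0.17, edgeR adjusted p = 0.023), a call lost without replicate b (adjusted p = 0.068) or c (adjusted p = 0.087) of 6 h or b of 24 h (adjusted p = 0.077). NO06G00660 rose by 0.30 ± 0.06 (edgeR adjusted p = 0.0025). The SPX membrane protein NO04G02820 rose from 4.48, 2.63 and 4.74 to 18.5, 19.9 and 22.8 CPM, by 2.36 ± 0.72 (edgeR adjusted p = 0.021). This call was lost without replicate a (adjusted p = 0.053) or b (adjusted p = 0.077) of 6 h. NO04G02810, with the same annotation, was high at 12 h (193.6 CPM) and gave 0.30 ± 0.23 (edgeR adjusted p = 0.33) between 6 h and 24 h.

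Phosphatases leaned upward. Of 24 tested genes, 9 rose and 1 fell, with a median of 0.12, and the member that fell was lost without replicate a or c of 24 h. Purple acid phosphatase 7 (NO12G01720), of a family of metal enzymes that release phosphate, rose from 80.7, 76.0 and 95.5 to 207.8, 202.1 and 208.2 CPM (1.29 ± 0.10, edgeR adjusted p = 1.8e-06). The alkaline phosphatase-like gene NO16G02990 rose from 5.27, 6.03 and 7.15 to 19.9, 17.2 and 17.0 CPM (1.55 ± 0.27, edgeR adjusted p = 0.00077) and had a mean of 45.3 CPM at 48 h. Purple acid phosphatase 7 had means of 178.0 CPM at 0 h, 206.0 CPM at 24 h and 150.0 CPM at 48 h. Alkaline phosphatase D (NO11G02060) was the member that fell, by -0.31 ± 0.09 (edgeR adjusted p = 0.015).

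The list of polyphosphate genes and pyrophosphatases had 2 of 6 tested members lower and 1 higher, with a median of -0.27. The 2 that fell were pyrophosphatases, which split pyrophosphate into phosphate. The soluble enzyme (NO18G00370) went from 88.6, 92.0 and 90.3 to 47.3, 45.1 and 41.0 CPM (-1.02 ± 0.06, edgeR adjusted p = 6.2e-07), and the proton-pumping membrane enzyme (NO19G01860) from 177.0, 170.6 and 134.7 to 99.1, 109.3 and 115.0 CPM (-0.58 ± 0.11, edgeR adjusted p = 0.0012). The inositol hexakisphosphate kinase (NO26G01490), of the enzymes that make inositol pyrophosphates, rose from 99.1, 106.3 and 152.7 to 222.7, 245.1 and 260.4 CPM (1.02 ± 0.14, edgeR adjusted p = 0.00015).

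**Figure D4:**
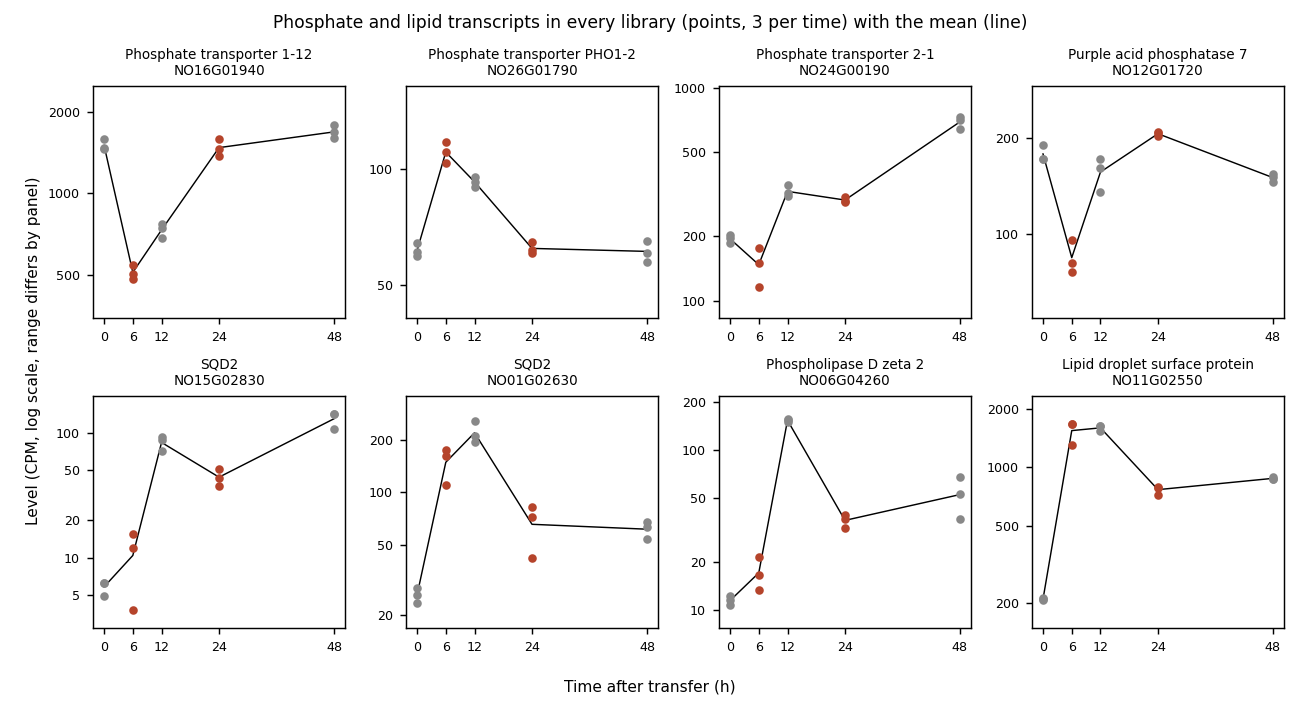
Each panel gives the level of 1 gene in CPM on a log axis, whose range differs by panel, in the 3 libraries of each time (points; 6 h and 24 h in red) with their mean (line) against hours after transfer. Phosphate transporters 1-12 and 2-1, purple acid phosphatase 7, phospholipase D zeta 2 and the SQD2 copy NO15G02830 lie higher at 24 h than at 6 h, and PHO1-2, the SQD2 copy NO01G02630 and the lipid droplet surface protein lie lower.

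Copies of SQD2, the last enzyme of sulfolipid synthesis, moved in opposite directions. NO15G02830 measured 15.5, 12.0 and 3.80 CPM at 6 h and 51.3, 43.5 and 37.5 CPM at 24 h, a rise of 2.09 ± 0.38 (edgeR adjusted p = 0.00095). NO01G02630 measured 162.4, 174.2 and 109.6 CPM at 6 h and 83.1, 72.1 and 42.2 CPM at 24 h, a fall of -1.18 ± 0.24 (edgeR adjusted p = 0.0019). Neither copy had overlapping libraries, and of the other 2 tested copies 0 were called. The sulfolipid precursor enzyme UDP-sulfoquinovose synthase (NO07G01150) gave -0.29 ± 0.11 (edgeR adjusted p = 0.056), and passed without replicate c of 6 h (-0.41, adjusted p = 0.0055) or a of 24 h (-0.39, adjusted p = 0.021). With all libraries kept, it passed in DESeq2 (adjusted p = 0.022). In edgeR it passed with both other scalings and without the filter (adjusted p = 0.041 each) and with the replicate block (adjusted p = 0.047). It did not pass in the other alternatives.

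The courses of these copies over all times also differed. NO15G02830 had means of 83.7 CPM at 12 h and 129.6 CPM at 48 h, so its 24 h level lay between 6 h and 12 h. NO01G02630 had means of 26 CPM at 0 h, 219.0 CPM at 12 h and 61.7 CPM at 48 h. Betaine lipid synthase (NO05G01490), which makes the phosphorus-free betaine lipids, fell from 94.3, 104.7 and 112.1 to 79.4, 77.7 and 80.6 CPM (-0.39 ± 0.08, edgeR adjusted p = 0.0015).

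Genes that break down phospholipids were split, with 9 of 29 higher (31.0%), 5 lower (17.2%) and a median of 0.07. DESeq2 called 7 higher and 8 lower. Phospholipase D zeta 2 (NO06G04260), whose Arabidopsis homologue is induced by phosphate starvation, rose from 21.3, 16.4 and 13.2 to 32.5, 36.9 and 39.3 CPM (1.09 ± 0.21, edgeR adjusted p = 0.0012). A lysophospholipase (NO03G04420) rose from 12.2, 12.4 and 7.64 to 23.7, 24.6 and 29.4 CPM (1.27 ± 0.18, edgeR adjusted p = 0.00015). Both means were far higher at 12 h, at 154.0 and 88.3 CPM, than at 6 h or 24 h.

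The lipid droplet surface protein (NO11G02550), the main protein of the oil bodies of this alga, fell. It measured 1662.6, 1667.6 and 1301.9 CPM at 6 h and 721.7, 784.2 and 792.6 CPM at 24 h, by -1.01 ± 0.08 (edgeR adjusted p = 3.2e-06). The 24 h mean (766.2 CPM) still lay above that of 0 h (208.8 CPM). A second gene of that annotation (NO05G01760) fell by -0.38 ± 0.04 (edgeR adjusted p = 1.5e-05).

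Diacylglycerol acyltransferases, which add the last acyl chain of triacylglycerol, mostly did not move upward. Of 13 tested genes, 4 fell and 1 rose. NO10G04120, annotated DGAT2D, rose from 80.3, 73.5 and 74.9 to 156.5, 139.0 and 157.2 CPM (0.99 ± 0.07, edgeR adjusted p = 1.3e-06). Another gene with the same annotation (NO26G01460) fell from 111.4, 102.2 and 93.6 to 64.6, 71.9 and 66.2 CPM (-0.60 ± 0.10, edgeR adjusted p = 0.00038). Over the whole list of triacylglycerol synthesis and lipid droplets, 7 of 29 genes fell (24.1%) and 2 rose (6.9%). Over all tested genes, 18.4% fell and 20.6% rose.

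Fatty acid synthesis and fatty acid desaturation leaned to opposite sides. Of 27 genes of synthesis, 13 were higher and 3 lower, although 8 were higher without replicate b of 6 h. Acetyl-CoA carboxylase 2 (NO09G00220), which makes the malonyl-CoA for chain building, rose from 2027.0, 1840.5 and 1802.5 to 3603.8, 3183.4 and 3475.1 CPM (0.86 ± 0.08, edgeR adjusted p = 5.3e-06). Its 24 h mean (3420.7 CPM) lay below its 0 h mean of 5312.6 CPM. Of 33 genes of desaturation and elongation, 12 were lower and 5 higher (3 higher without replicate a or b of 6 h or c of 24 h).

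The delta-12 desaturase (NO11G02480), which turns oleate into linoleate, fell from 463.5, 532.0 and 222.6 to 194.7, 109.7 and 70.6 CPM (-1.70 ± 0.37, edgeR adjusted p = 0.0032). Its mean was 786.0 CPM at 12 h and 47.7 CPM at 48 h. An acyl-lipid desaturase (NO28G00700) fell from 524.8, 486.2 and 201.3 to 133.6, 99.6 and 68.4 CPM (-2.01 ± 0.52, edgeR adjusted p = 0.0088). In both genes replicate c of 6 h was lower than the other 6 h libraries, without overlap with 24 h.

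Most genes of chlorophyll synthesis rose. Of 25 tested genes of chlorophyll and porphyrin synthesis, 18 were higher and 3 lower, with a median of 0.44. Glutamate-1-semialdehyde 2,1-aminomutase (NO15G00100), which makes the first committed precursor of the pigment, rose from 448.7, 432.1 and 494.3 to 1135.8, 1084.0 and 1221.8 CPM (1.32 ± 0.06, edgeR adjusted p = 1.3e-07). A magnesium chelatase subunit H (NO22G01810), which directs the precursor to chlorophyll, rose from 1552.6, 1441.6 and 1714.6 to 2305.2, 1960.4 and 2138.6 CPM (0.44 ± 0.10, edgeR adjusted p = 0.0048). Geranylgeranyl reductase (NO10G02590), which makes the phytol tail, rose from 2428.5, 2397.3 and 2701.2 to 4033.5, 3759.0 and 3953.0 CPM (0.64 ± 0.06, edgeR adjusted p = 6.5e-06). This reductase was counted in the list of sterol and isoprenoid synthesis.

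The 0 h means of these genes were high as well. Magnesium chelatase H had means of 3641.2 CPM at 0 h and 892.5 CPM at 12 h, and the reductase had 3880.0 and 2739.8 CPM. The members that fell included a pair annotated as protochlorophyllide-dependent translocon component 52, which belongs to import into the chloroplast. One of them (NO05G04600) dropped from 361.5, 309.7 and 235.9 to 107.6, 102.9 and 107.9 CPM (-1.51 ± 0.13, edgeR adjusted p = 4.5e-06).

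Photosystem and electron transport genes were higher in 11 of 24 cases and lower in 0, with a median of 0.25, and in 7 without replicate b of 6 h. DESeq2 called 10 of them higher and 1 lower. Light-harvesting proteins, which collect light for the photosystems, had 11 of 25 higher and 3 lower, with small differences and a median of 0.16. That count was not stable, with 3 higher when replicate a or b of 6 h or replicate a of 24 h was left out and 4 without replicate b of 24 h. Without replicate c of 24 h it was 7. With all libraries kept, it was 6 with DESeq2 size factors, 5 with upper-quartile scaling and 4 without the filter on low counts. The replicate block gave 7, and DESeq2 itself called 11 higher. The 3 lower members became 1 without replicate b or c of 24 h.

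Carbon fixation, glycolysis and respiration also leaned upward. Of 31 genes of carbon fixation, 14 rose and 3 fell (median 0.30), and of 60 of glycolysis and gluconeogenesis, 27 rose and 6 fell (median 0.23). The mitochondrial respiratory chain had 22 of 52 higher and 3 lower (median 0.22), with 14 higher without replicate a of 6 h. The chloroplast fructose-1,6-bisphosphatase (NO17G02820), an enzyme of the Calvin cycle, rose from 324.2, 321.7 and 415.2 to 744.1, 701.7 and 750.7 CPM (1.05 ± 0.10, edgeR adjusted p = 1.1e-05). Its mean at 0 h was 850.8 CPM.

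Both enzymes of the glyoxylate shunt, which lets cells build sugar from fatty acids, rose. Isocitrate lyase (NO06G01840) was at 366.5, 369.1 and 523.1 CPM at 6 h, at 1046.9, 1121.8 and 1375.9 CPM at 24 h and at a mean of 1608.7 CPM at 48 h (1.49 ± 0.17, edgeR adjusted p = 2.8e-05). Malate synthase (NO02G03280) rose from 78.1, 77.0 and 95.8 to 123.5, 291.0 and 226.3 CPM (1.35 ± 0.25, edgeR adjusted p = 0.0011), with replicate a of 24 h the lowest of its time. Isocitrate lyase stayed high at 48 h, while malate synthase was back at 92.4 CPM.

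Copies of pyruvate, phosphate dikinase, which makes phosphoenolpyruvate, differed. NO26G01010 rose from 279.0, 156.0 and 204.2 to 360.6, 422.3 and 692.1 CPM (1.21 ± 0.25, edgeR adjusted p = 0.0025) and had a mean of 2216.9 CPM at 48 h. NO12G00860 fell from 320.0, 303.7 and 308.3 to 204.3, 182.3 and 250.7 CPM (-0.55 ± 0.14, edgeR adjusted p = 0.0079). The alternative oxidase (NO02G00290, ubiquinol oxidase 1a), which takes electrons past the later complexes of respiration, fell from 395.4, 373.9 and 417.9 to 246.6, 262.8 and 344.9 CPM (-0.47 ± 0.12, edgeR adjusted p = 0.0072), and had a mean of 955.4 CPM at 48 h.

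Nitrogen uptake and assimilation had 14 of 30 genes higher and 3 lower, with a median of 0.43. The 3 lower members became 0 without replicate b of 6 h or of 24 h and 1 without replicate a of 6 h or c of 24 h. All 5 glutamine and glutamate synthases, which fix ammonium into amino acids, rose by 0.53 to 0.73 on the log2 scale. Cytosolic glutamine synthetase (NO07G03230) went from 1756.1, 1757.8 and 1616.3 to 2968.3, 2620.2 and 2810.4 CPM (0.71 ± 0.06, edgeR adjusted p = 5.9e-06). Its mean at 0 h was 2677.1 CPM. The ammonium transporter of the Rh type (NO30G00980) rose from 163.8, 165.3 and 182.7 to 439.2, 355.7 and 392.5 CPM (1.21 ± 0.08, edgeR adjusted p = 7.9e-07).

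An ammonium carrier with separate libraries missed the test. Ammonium transporter 2 member 2 (NO09G03110) had 3007.1, 2723.0 and 2503.1 CPM at 6 h and 5289.0, 4165.3 and 4751.4 CPM at 24 h. Its libraries did not overlap, yet the difference of 0.79 ± 1.32 did not pass in the fit over all 15 libraries (edgeR adjusted p = 0.69). Of the 12 h libraries, replicate b held 0.23 CPM of this gene and the others 2285.3 and 2112.9 CPM. In a fit of only the 6 libraries compared, the difference was 0.77 and passed (edgeR adjusted p = 0.0055).

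Large changes also occurred outside the pathways above. An NAD-dependent epimerase/dehydratase (NO12G03540), a family that modifies nucleotide sugars, rose from 2.35, 4.05 and 2.02 to 116.7, 105.2 and 106.8 CPM (5.29 ± 0.39, edgeR adjusted p = 1.6e-06). It had means of 124.8 CPM at 0 h and 4.50 CPM at 12 h, so it was low at 6 h and 12 h and high at the other times. The homologue of ARIA (NO29G00310), an armadillo repeat protein that in Arabidopsis binds a transcription factor of the abscisic acid response, rose from 3.87, 7.45 and 12.3 to 140.5, 86.9 and 184.2 CPM (4.11 ± 0.43, edgeR adjusted p = 1.7e-05).

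Further large rises were those of single genes. UDP-galactose/UDP-glucose transporter 3 (NO29G01270), which carries nucleotide sugars into the endomembrane system, rose from 36.1, 31.4 and 32.8 to 188.6, 178.7 and 241.8 CPM (2.60 ± 0.15, edgeR adjusted p = 4.4e-07). A putative sulfatase (NO13G02390) rose from 29.1, 27.6 and 32.1 to 153.2, 158.6 and 169.3 CPM (2.44 ± 0.08, edgeR adjusted p = 1.5e-08). Protein-ribulosamine 3-kinase (NO03G04990), which repairs sugar-damaged proteins, rose from 39, 43.8 and 54.8 to 250.6, 278.4 and 301.2 CPM (2.59 ± 0.14, edgeR adjusted p = 2.1e-07). None of these genes had overlapping libraries, and all kept means above 180 CPM at 48 h.

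Large falls included a zinc metalloendopeptidase (NO27G01580), a protease, which went from 18.3, 20.5 and 22.6 to 1.84, 1.59 and 1.5 CPM (-3.63 ± 0.17, edgeR adjusted p = 1.3e-07). Its means were 26.8 CPM (12 h) and 1.91 CPM (48 h). A 16.6 kDa heat shock protein (NO18G01280), a small chaperone, fell from 81.4, 102.4 and 145.8 to 21.4, 20.8 and 19.1 CPM (-2.43 ± 0.21, edgeR adjusted p = 5.2e-06), with 69.6 CPM at 48 h. A T-complex 11 homologue (NO03G01840) fell from 43.4, 42.3 and 52.4 to 16.0, 6.48 and 7.84 CPM (-2.18 ± 0.45, edgeR adjusted p = 0.0021). That gene had means of 574.8 CPM at 0 h and 4.30 CPM at 48 h, with 177.5, 46.3 and 87.1 CPM at 12 h. Phototropin-1B (NO01G04880), a blue light receptor, fell from 76.1, 66.9 and 61.3 to 34.8, 24.3 and 19.0 CPM (-1.39 ± 0.29, edgeR adjusted p = 0.0024).

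A few genes were all but absent at 1 of the times. An MLRQ subunit of respiratory complex I (NO09G00200) had 4, 4 and 4 counts in the 6 h libraries and 2047, 1850 and 3393 at 24 h. Cytosolic aldolase 8 (NO01G03170), a glycolytic enzyme, had 3184, 968 and 651 counts at 6 h and 4, 1 and 1 at 24 h. A chloroplast fatty-acid-binding protein (NO25G02030) had 7, 6 and 4 counts at 6 h and 704, 555 and 338 at 24 h. These genes also differed between libraries of 1 time elsewhere in the course. At 0 h aldolase 8 was at 0.175, 630.4 and 644.0 CPM and the MLRQ gene at 58.8, 0.249 and 64.7 CPM, and at 12 h the fatty-acid-binding protein was at 23.7, 0.403 and 8.18 CPM. No fold is given for these genes because 1 side lies close to the limit of 3 counts that a count of 0 allows, counting error only. Another MLRQ gene (NO01G01120) fell by -0.43 ± 0.06 (edgeR adjusted p = 0.0001) and was at 340.0, 341.7 and 364.8 CPM at 0 h. Whether the authors' counting split reads of similar copies was not tested.

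Single libraries carried some large values. ATP synthase subunit H (NO17G00720) measured 80.1, 82.8 and 78.7 CPM at 6 h and 531.2, 87.8 and 85.1 CPM at 24 h, and its log2 fold change of 1.54 became 0.10 without replicate a of 24 h (edgeR adjusted p = 0.17). Cation/H+ antiporter 18 (NO25G02020) rose from 2.07, 2.14 and 2.86 to 90.6, 7.81 and 17.1 CPM, and its 4.02 became 2.39 without that library (edgeR adjusted p = 0.13). Both calls were also lost without any 1 of the 6 h libraries, with log2 fold changes of 1.52 to 1.55 and of 3.92 to 4.18.

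The other times place the comparison within the course. Of the 1924 genes that rose, the 12 h mean lay between those of 6 h and 24 h for 801 (41.6%), beyond 24 h for 391 (20.3%) and on the far side of 6 h for 732 (38.0%). Of the 1715 that fell, these were 768 (44.8%), 383 (22.3%) and 564 (32.9%). The 0 h mean was nearer to 24 h than to 6 h for 1139 of the risers (59.2%) and 1107 of the fallers (64.5%). At 48 h the mean was nearer to 24 h than to 6 h for 1435 (74.6%) and 1335 (77.8%). These places were not counted over all tested genes.

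The comparison of 48 h with 12 h used 6 other libraries. It came from the same fit over all 15 libraries, with shared scaling and estimates of spread, so its calls are not fully independent. Over all tested genes, 26.6% rose and 26.2% fell there. Of the 1924 risers, 1060 also rose there, 55.1% of them and 42.7% of the 2484 genes that rose from 12 h to 48 h, while 296 (15.4%) fell. Of the 1715 fallers, 910 also fell there, 53.1% of them and 37.3% of the 2439 genes that fell, while 264 (15.4%) rose. Fitted each on its own 6 libraries, the comparisons called 1545 genes the same way, in place of 1970. PCNA, cyclin-A1-1, the soluble pyrophosphatase and the lipid droplet surface protein fell in both, and phosphate transporter 1-12, isocitrate lyase and acetyl-CoA carboxylase 2 rose in both. Phospholipase D zeta 2 rose from 6 h to 24 h and fell by -1.55 from 12 h to 48 h (edgeR adjusted p = 5.4e-05). Alternative oxidase fell from 6 h to 24 h and rose by 1.43 from 12 h to 48 h (edgeR adjusted p = 1.4e-06).

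**Figure D5:**
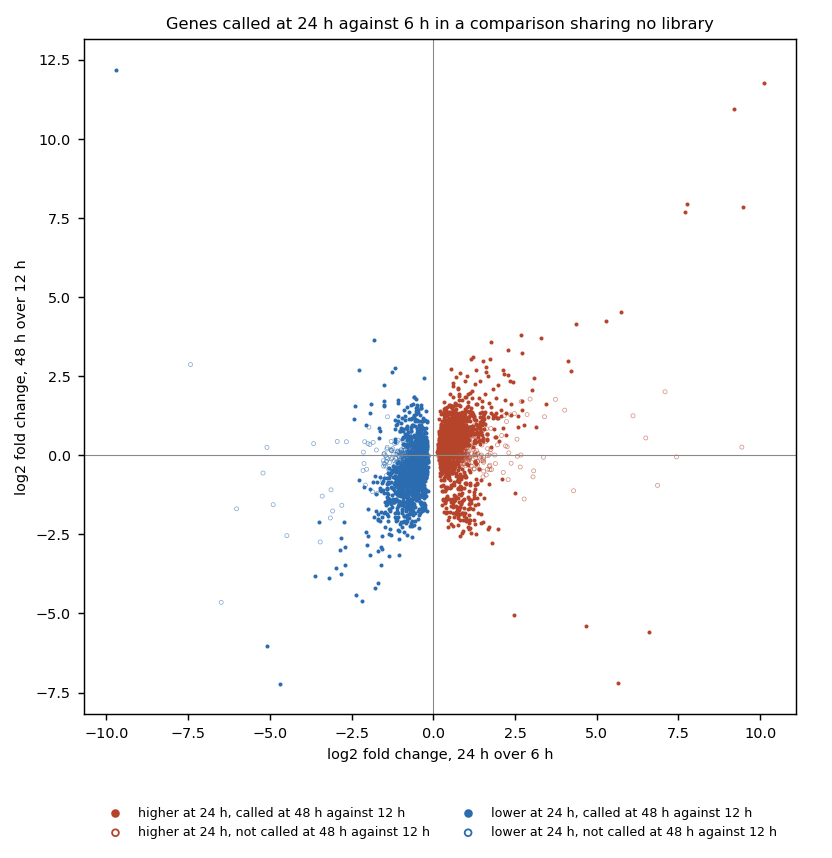
Each point is 1 of the 3639 genes called at 24 h against 6 h, with its log2 fold change of 24 h over 6 h on the x axis and of 48 h over 12 h on the y axis (filled, called in both comparisons; open, called only in the first). Red points are the 1924 risers and blue the 1715 fallers, and 1060 risers and 910 fallers were called the same way in both. Over all tested genes, 26.6% rose and 26.2% fell from 12 h to 48 h.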

How the data were processed

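RNA sequencing of 15 libraries gave 1 table. The tool HISAT2 is listed, without a version, per the submitters' processing notes. For read counter, genome build, annotation and strand setting, the sources used here give no name. The deposited values are expected counts (estimated counts, whole in the table, not scaled to depth) and FPKM, which the authors scaled by gene length and depth; FPKM was not tested. Libraries were grouped by the time in their labels.

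The test was edgeR 4.0.16 under R 4.3.3 (TMM scaling, low counts removed by filterByExpr, quasi-likelihood F-test, 5 time means over 15 libraries, two-sided, Benjamini-Hochberg adjustment over 9321 genes at 0.05). Each SE is the size of the log2 fold change divided by the root of F. Plots were drawn in Python 3.11.15 with matplotlib 3.10.9 and pandas 2.3.3. Alternatives used DESeq2 1.42.0, other scalings, filters, a replicate block, fewer libraries and edgeR's 2-fold threshold test. After the fit, the same steps were run on counts simulated from its means and spreads, and that outcome is not reported here.

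Descriptions came from Swiss-Prot, else KEGG, NR or Pfam columns of the table. Genes were sorted into 42 lists by words in these descriptions (2156 tested genes, 28 genes in several lists). The members and lists were chosen with earlier results of these data known. Named genes were called, described, non-overlapping genes whose mean log2 CPM reached 3 (the 12 largest changes and 3 most abundant each way) and the 2 largest called changes each way of a list. Named outside that rule, after their values were seen, were PCNA, MCM2, MCM3, polymerase epsilon, both ribonucleotide reductase chains, proteasome alpha 1-B, RRP5, BMS1, phosphate transporters 2-1 and 1-4, PHO1 homologue 7, SPX genes NO10G01110, NO06G00660 and NO04G02810, UDP-sulfoquinovose synthase, NO05G01760, NO26G01460, acetyl-CoA carboxylase 2, glutamate-1-semialdehyde 2,1-aminomutase, magnesium chelatase H, glutamine synthetase and ammonium transporter 2. The splits of lists by role were also made after the values were seen.

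A count of 0 allows up to 3 counts, 0.105 to 0.168 CPM in the compared libraries, counting error only. No libraries of a time were copies (chi-square per degree of freedom 75.3 to 122). No sequences or positions are shown.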

Additional observations from a re-analysis of the deposited data

How the results depend on the processing

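Counts of higher and lower genes lay within 1.5 times of 1924 and 1715 under each scaling, filter, DESeq2 and left-out library tried, with 1574 to 1966 higher and 1463 to 1996 lower. DESeq2 size factors turned the balance to 1796 higher and 1833 lower, and DESeq2 itself gave 1966 and 1996. With each of the 6 libraries left out in turn the counts were 1578 to 1875 higher and 1463 to 1723 lower. With the replicate block they were 1853 and 1652, and 94.4% of the calls were shared. Fewer were shared with 1 library left out (81.9% to 88.6%) or in a fit of only the 6 libraries compared (80.6%). Deviations of libraries sharing a letter correlated at -0.088 to 0.0768, with 0 of 30 pairs above 0.1, so the letters were not taken as pairs. Tested against a 2-fold threshold, in place of a fitted fold past 2, 90 genes were higher and 59 lower in place of 382 and 313, a stricter question by construction. The 2-fold threshold test was left out of the counts of kept calls and directions that follow. Of 180 genes chosen by the naming rule, 151 kept their call in every other alternative that gave a value. In at least 1 of these, 29 lost it, and 0 reversed. For 11 genes at least 1 alternative gave no value. Of 18 called genes named outside the rule, 17 kept their call and NO10G01110 lost it in 4, and of 5 uncalled ones, UDP-sulfoquinovose synthase and ammonium transporter 2 passed in some. The difference of the large ribonucleotide reductase chain (NO17G00650), -0.02, ran from -0.1 to 0.08 with 1 library left out and was above 0 without replicate a of 6 h (0.08) or c of 24 h (0.03), uncalled. Of 41 lists with a majority direction, 32 kept it in 14 alternatives. It changed in at least 1 for phospholipid breakdown and synthesis, light-harvesting proteins, translation factors, chaperones, autophagy, nucleotide transport, antioxidants and transcription factors. Dropping 348 tested genes whose libraries of a time ran from under 10 counts to at least 100, a choice made after the data were seen, gave 1926 higher and 1718 lower.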

Other observations

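Of tested genes without a description, 383 rose and 417 fell (33.3% called), against 1541 and 1298 (41.0%) with a description. Among 88 tested genes newly assembled by the authors, 22 rose and 8 fell, with a median log2 fold change of 0.47. Sterol and isoprenoid synthesis, which supplies membrane sterols, had 8 of 23 genes lower and 4 higher (median -0.40, and 2 higher without replicate a of 6 h or c of 24 h). The 4 included geranylgeranyl reductase, given above with chlorophyll synthesis. Delta-24 sterol reductase (NO25G00840) fell from 372.3, 303.8 and 355.5 to 221.7, 191.8 and 162.1 CPM (-0.84 ± 0.22, edgeR adjusted p = 0.01). The plasma membrane proton pump ATPase 1 (NO12G00370), which energizes uptake, rose from 3610.5, 3403.0 and 3598.1 to 5760.1, 4524.9 and 5250.4 CPM (0.55 ± 0.10, edgeR adjusted p = 0.0011). Its means were 8610.4 CPM at 0 h and 1578.5 CPM at 12 h.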
